A study of Homo sapiens with 6 samples.

Results

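The S100 proteins and the annexins are 2 families of calcium-dependent binding proteins, described here in SW480, a human colon cancer cell line, after knockdown of the aldehyde dehydrogenase gene ALDH1B1. Members were found by gene symbol alone (S100A with a number, S100B, S100P, S100G, S100Z, and ANXA with a number), which gave 22 of the 22258 symbols in the table, 12 S100 genes and 10 annexins. The series holds 3 samples labelled ALDH1B1 KD and 3 control samples, whose columns are named SCR and whose genotype is given as WT. All 6 are SW480 with no treatment, numbered 4, 5 and 6 in each group, and the protocol mentions detachment with trypsin. The sources used here do not state the knockdown method, or whether either group is 1 clone. Nothing says that the replicates are separate cultures, so p-values measure the spread between these samples only, which may be technical.

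S100 proteins are small EF-hand proteins that mostly work as dimers. On binding calcium they expose a surface that grips a partner, often an annexin, a myosin or another cytoskeletal protein, and some are released from cells and act on receptors such as RAGE. Annexins bind acidic phospholipids through calcium held in their core repeats, and each carries its own N-terminal tail, where S100 dimers dock. Together they are known for membrane repair, vesicle traffic, plasminogen binding at the cell surface and cell movement, and many are abundant in epithelium and in carcinoma.

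Levels are in RPM, reads scaled to sequencing depth, which was about 20360000 to 28590000 reads a sample. ALDH1B1 itself had 34.1, 39.6 and 36.7 RPM in the control samples and 19.99, 20.4 and 23.2 in the knockdown samples, so it was lower in every one of them (log2 fold change -0.80, SE 0.0926, limma adjusted p = 2.36e-07). Of the epithelial markers, KRT8, KRT18 and KRT19 led in both groups, and the 9 markers summed to 5433 to 5689 RPM in the control and 5830 to 6142 in the knockdown. KRT20 and LGALS4, markers of mature colon cells, had group means of 0.0941 to 0.182 RPM. The matched leukocyte markers (5 of 9) summed to 2.39 to 3.58 and 1.67 to 2.43 RPM, fibroblast markers (2 of 7) to 4.08 to 5.70 and 5.27 to 6.92, the endothelial VWF to 0.425 to 0.617 and 0.497 to 0.688, and Schwann cell and melanocyte markers (4 of 7) to 2.23 to 3.15 and 3.09 to 3.71. These sums are far below that of the epithelial markers, and 0 of the matched markers were at 0 in all 6 samples. Of 7 tested epithelial markers 3 rose, beside 22.6% of all tested genes, and 1 fell, beside 19.2%. E-cadherin (CDH1) rose from 13.1 ± 2.92 to 51.0 ± 4.97 RPM. The marker that fell, CDX2, went from 54.3 ± 2.64 to 32.1 ± 3.39 RPM (log2 fold change -0.76, limma adjusted p = 2.29e-07). The leukocyte marker CD68 fell by 1.93 on the log2 scale, from 1.17 ± 0.320 to 0.311 ± 0.106 RPM. It reached the 0.688 RPM needed for testing only through the control samples. The part of these shifts in the results below was not tested. In bulk RNA of this kind, fewer cells that express a gene and less of its RNA per cell cannot be told apart.

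S100A3 (3.05 times the control), S100A1, S100A10, S100A13 and S100A2 rose, with ANXA4, while ANXA1 (to 47.6% of control), S100A5, S100A16, ANXA5, ANXA3, S100A11 and ANXA7 fell. S100A4, S100A6, ANXA2, ANXA6, ANXA8, ANXA9 and ANXA11 did not pass the test, and S100A14 and S100P were too low to be tested. The test was limma across all 15499 genes whose mean reached 0.688 RPM, with an adjusted p threshold of 0.05. Among the 20 tested members 6 rose, where 22.6% of all tested genes rose, and 7 fell, where 19.2% of all fell. S100A5, counted among the 7, reached the level needed for testing only through its control samples. Together 13 of 20 changed, against 41.8% of all genes, and no test sets the members against other genes. Of the S100 genes 5 rose and 3 fell among 10 tested, and of the annexins 1 rose and 4 fell among 10.

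**Figure D1:**
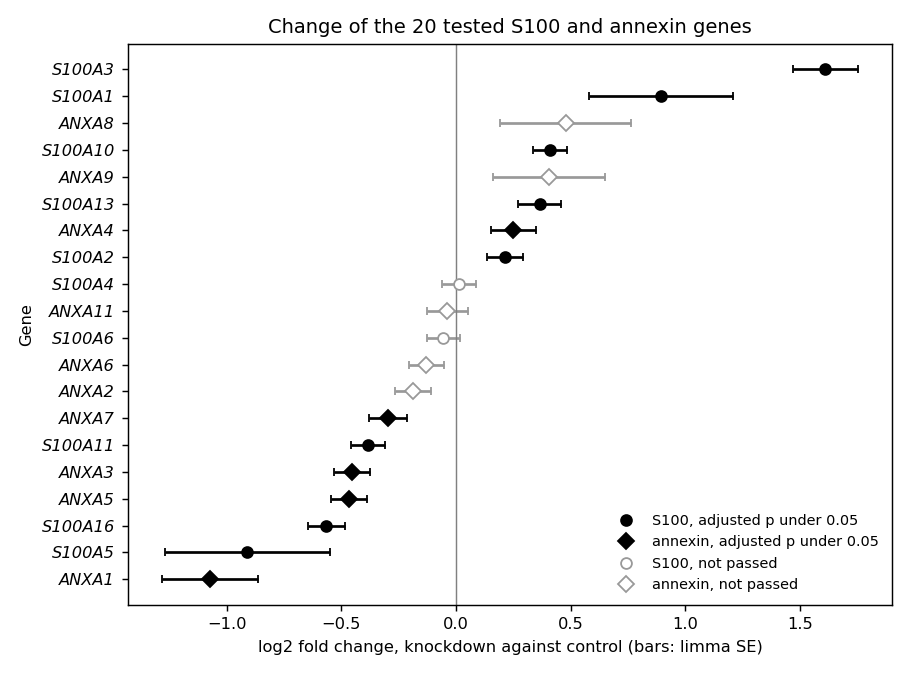
Log2 fold change (knockdown against control, x axis) of the 20 tested members, ordered by size. Circles are S100 genes, diamonds annexins, bars limma standard errors from 3 against 3 samples, and filled symbols passed an adjusted p of 0.05. Values run from -1.07 for ANXA1 to 1.61 for S100A3, and 7 open symbols did not pass.

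The control and knockdown samples did not overlap for 14 of the 20 tested members. In 5 of these every knockdown sample was higher (26.5% of all tested genes) and in 9 every one was lower (24.6%), so 14 of 20 compares with 51.0% of all genes. The median absolute log2 fold change was 0.39 over the tested members and 0.24 over all tested genes. The median signed change was -0.05 for the members, 0.11 for the S100 genes alone and -0.16 for the annexins alone, beside 0.00072 for all genes.

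Between genes, levels can be set side by side only per length, here as RPM per kb of exons merged over the basic transcripts of GENCODE 29, which may not be the authors' gene models. On that scale the control order was led by ANXA2 with 577, S100A11 with 387, S100A4 with 284, S100A6 with 213 and S100A10 with 122 RPM per kb. The same 5 genes led in the same order in the knockdown, with 506, 297, 287, 205 and 162 RPM per kb. S100A3 stood 15th of 22 in the control, with 6.91, and 12th in the knockdown, with 20.6. At the other end S100P had 0.292 and 0.221 RPM per kb and S100A14 0.394 and 0.393.

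The annexin A2 complex comes first, because its 2 subunits are the best known S100 and annexin pair. S100A10, also called p11, is the light chain of that heterotetramer. It has lost calcium binding, holds annexin A2 as a fixed dimer and offers a docking site for plasminogen. S100A10 (chromosome 1, 151955391 to 151966867, minus strand, by the deposited positions, for which the table names no build) had 150.1, 163.3 and 145.5 RPM in control replicates 4, 5 and 6 and 197.7, 196.4 and 215.8 in knockdown replicates 4, 5 and 6. Every knockdown sample lay above every control sample, and the rise from 153.0 ± 9.23 to 203.3 ± 10.8 RPM (SD, n = 3 each) gave a log2 fold change of 0.41 (SE 0.0751, limma adjusted p = 0.000104).

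ANXA2, the heavy chain, binds membrane lipids and actin (chromosome 15, 60639333 to 60695083, minus strand). It had 1093, 1110 and 1060 RPM in the control samples and 961.8, 924.0 and 979.2 in the knockdown samples. The groups did not overlap, but the log2 fold change of -0.19 (SE 0.0769) missed the threshold (limma adjusted p = 0.0523). It passed without control replicate 6, with -0.21 and adjusted p = 0.0371, and with median-of-ratios scaling, with adjusted p = 0.00732, while quantile normalization left -0.027 (adjusted p = 0.653). The processed pseudogene ANXA2P2, a near-identical copy on chromosome 9, had 744 ± 16.3 RPM in the control and 657 ± 23.8 in the knockdown (log2 fold change -0.18, limma adjusted p = 0.0558). The copy held 68.5% as many reads as ANXA2 in the control, so how the authors' counting divided reads between the copies is uncertain. Summed, the pair had 1832 ± 41.4 and 1612 ± 52.1 RPM (SD, n = 3).

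The ratio of S100A10 to ANXA2 within each sample was 0.137, 0.147 and 0.137 in the control samples and 0.206, 0.213 and 0.220 in the knockdown samples. It was higher in every knockdown sample, by 0.60 on the log2 scale, and an exact two-sided permutation test returned p = 0.1, the lowest possible with 3 samples a group. This ratio, like those that follow, is a ratio of RPM, does not depend on the scaling of a sample, and was chosen after the values of its genes were seen.

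**Figure D2:**
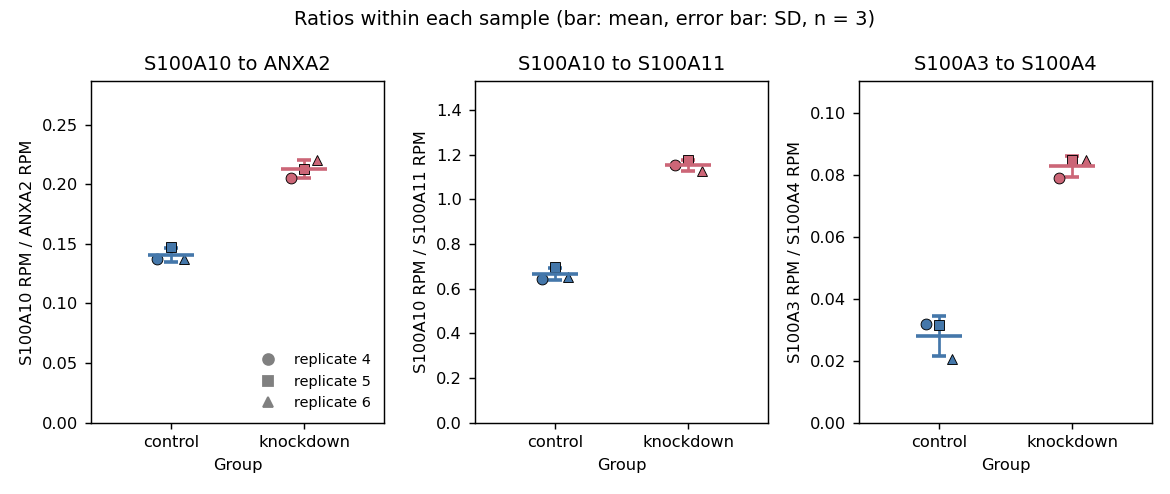
Ratio of RPM of gene pairs within each sample (y axes, linear, from 0) in the control and knockdown groups. Symbols mark replicates 4, 5 and 6, horizontal bars the mean and error bars the SD of 3 samples. S100A10 to ANXA2 went from 0.141 to 0.213, S100A10 to S100A11 from 0.665 to 1.15 and S100A3 to S100A4 from 0.0280 to 0.0830, with no overlap in any of the 3 panels.

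S100A11, or calgizzarin, is the dimer that docks on the tail of annexin A1 and also takes part in plasma membrane repair (chromosome 1, 152004982 to 152020384, minus strand). Its levels were 232.8, 235.0 and 222.3 RPM in the control and 171.5, 166.9 and 191.4 RPM in the knockdown. The groups lay clear of each other, and the fall was -0.38 on the log2 scale (SE 0.0748, limma adjusted p = 0.000213). In RPM, S100A10 was below S100A11 in every control sample and above it in every knockdown sample, with ratios of 0.645 to 0.695 and 1.13 to 1.18. Per kb of exons S100A11 stayed the higher of these neighbouring genes in both groups.

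ANXA1, or lipocortin, is a substrate of the EGF receptor and a ligand of formyl peptide receptors with anti-inflammatory effects (chromosome 9, 75766673 to 75785310, plus strand). It is a low gene in these cells, with 3.71, 4.46 and 5.95 RPM in the control samples and 2.99, 2.01 and 1.76 in the knockdown samples, about 41 to 140 reads. All knockdown values lay below all control values, although control replicate 4 and knockdown replicate 4 were close. The fall from 4.71 ± 1.14 to 2.25 ± 0.651 RPM was -1.07 on the log2 scale (SE 0.208, limma adjusted p = 0.000207), the largest fall among the tested members. Its partner ratio, S100A11 to ANXA1, ran from 37.4 to 62.8 in the control and from 57.3 to 108.8 in the knockdown, with overlap (exact two-sided permutation p = 0.2).

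**Figure D3:**
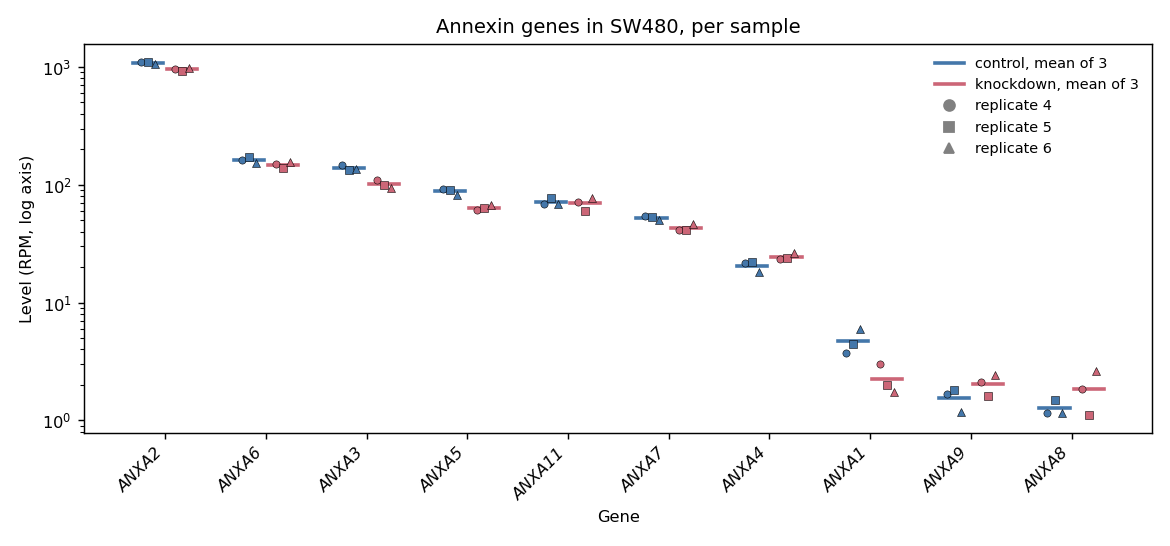
Level of the 10 annexin genes in RPM (y axis, log scale) in each of the 6 samples, ordered by the control mean. Symbols are replicates and short lines are means of 3 samples. ANXA2 is the highest in both groups, ANXA1 falls from 4.71 to 2.25, and the points of ANXA6, ANXA8, ANXA9 and ANXA11 overlap between groups.

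Of the other annexins, ANXA5, ANXA3 and ANXA7 fell. ANXA5, which binds phosphatidylserine and is used to stain dying cells (chromosome 4, 122589110 to 122618269, minus strand), had 91.7, 90.2 and 82.2 RPM in the control and 61.2, 63.1 and 66.96 in the knockdown. The fall was uniform across the replicates, with -0.47 on the log2 scale (SE 0.0778, limma adjusted p = 3.62e-05). ANXA3 (chromosome 4, 79472673 to 79531598, plus strand), an annexin also found in neutrophil granules, had 147.0, 132.9 and 136.2 RPM against 109.6, 99.9 and 94.6. Its change was -0.45 (SE 0.0774, limma adjusted p = 4.66e-05), close to that of ANXA5. ANXA7, or synexin, known for granule fusion (chromosome 10, 75134859 to 75173835, minus strand), fell by 0.30 on the log2 scale, from 52.4 ± 2.07 to 42.7 ± 2.95 RPM (limma adjusted p = 0.00511).

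ANXA6, which links membranes to actin and cholesterol handling, had 152.1 to 170.9 RPM in the control and 138.5 to 155.4 in the knockdown, so the groups overlapped (log2 fold change -0.13, limma adjusted p = 0.174). It passed without control replicate 6, with -0.17 and adjusted p = 0.0482, and with median-of-ratios scaling, but had -0.023 (adjusted p = 0.706) with quantile normalization and -0.084 (adjusted p = 0.498) without knockdown replicate 5. ANXA11, which tethers RNA granules to lysosomes and binds S100A6, had 68.6 to 76.8 and 60.4 to 77.8 RPM, with a change of -0.04 whose sign turned under 4 of the alternatives tried. With these values the annexin genes summed to 1628 ± 46.1 RPM in control and 1411 ± 50.1 RPM in knockdown samples (SD, n = 3). ANXA2 made up 66.5% to 68.2% of that sum in every sample, so the sum mostly follows ANXA2.

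ANXA4 was the annexin that rose. It is an epithelial annexin of apical and Golgi membranes (chromosome 2, 69871557 to 70053597, plus strand), with 21.5, 22.1 and 18.2 RPM in the control and 23.2, 23.9 and 26.1 in the knockdown. The groups were close but did not overlap, with 0.25 on the log2 scale (SE 0.0979, limma adjusted p = 0.0426). The call was lost without control replicate 4 or 6 (0.28, adjusted p = 0.0501, and 0.16, adjusted p = 0.140) and without knockdown replicate 4, 5 or 6 (0.28, 0.26 and 0.20, adjusted p = 0.0514, 0.0887 and 0.167). Of the 20 tested genes around ANXA4, taken evenly from both sides, 16 rose and 0 fell. Their median log2 fold change was 0.45, above that of ANXA4 itself. The part of that shared shift in the rise of ANXA4 was not tested.

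ANXA8 and ANXA9 were low. ANXA8, an annexin of stratified epithelium, had 1.15, 1.50 and 1.16 RPM in the control and 1.85, 1.11 and 2.62 in the knockdown, and did not pass (log2 fold change 0.48, limma adjusted p = 0.185). Without knockdown replicate 5 it did, with 0.81 and adjusted p = 0.0338, whereas without knockdown replicate 6 it had 0.19 (adjusted p = 0.674) and with quantile normalization 0.24 (adjusted p = 0.534). ANXA8 has near-identical copies in the table, and one of them, ANXA8L2, rose from 0.605 ± 0.138 to 2.01 ± 0.542 RPM (log2 fold change 1.72, limma adjusted p = 8.1e-05). The control mean of ANXA8L2 lay below the 0.688 RPM needed for testing. Summed over ANXA8, ANXA8L1 and ANXA8L2, which avoids the division of reads between copies, the control samples had 1.99, 1.99 and 1.72 RPM and the knockdown samples 3.74, 3.95 and 4.33. The summed groups lay apart, with the smallest exact two-sided permutation p for 3 against 3, 0.1, and this sum was formed after the values were seen. ANXA9, whose core has lost calcium binding, had 1.56 ± 0.324 and 2.06 ± 0.400 RPM (log2 fold change 0.40, limma adjusted p = 0.189).

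Among the S100 genes, S100A3 moved most. S100A3 is a cysteine-rich, zinc-binding S100 protein known from the hair cuticle (chromosome 1, 153519805 to 153521849, minus strand). It had 7.87, 7.26 and 4.67 RPM in the control and 20.2, 19.1 and 19.7 in the knockdown, on 110 to 515 reads a sample. The knockdown samples were tightly grouped at about 3 times the control, control replicate 6 was the lowest, which is 1.61 on the log2 scale (SE 0.142, limma adjusted p = 2.28e-09). Of all tested genes, 98.8% had a lower log2 fold change than S100A3.

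The next gene, S100A4, did not pass the test. S100A4, or metastasin, binds non-muscle myosin and is known for its link to cell movement (chromosome 1, 153516089 to 153522613, minus strand), and by its deposited position S100A3 lies wholly inside its span on the same strand. S100A4 had 246.4, 229.9 and 227.8 RPM in the control and 255.3, 224.3 and 231.9 in the knockdown. These groups overlap (log2 fold change 0.01, SE 0.0750, limma adjusted p = 0.899). Reads of S100A3 equalled 2.05% to 3.19% of those of S100A4 in the control samples and 7.91% to 8.50% in the knockdown samples. Because these deposited spans overlap, reads in shared stretches could be given to either gene. The authors' rule for such reads is not given in the sources used here. By the RefSeq starts used below for promoters, S100A4 begins at a lower position than S100A3. By the deposited positions, on the minus strand, it begins at a higher one, so the gene models differ.

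S100A6, or calcyclin, a marker of growing cells, had 178.5, 183.9 and 179.0 RPM in the control and 178.1, 165.2 and 178.0 in the knockdown (log2 fold change -0.06, limma adjusted p = 0.560). The 6 values do not overlap between groups, by a margin far below the spread in the knockdown. S100A2, a p53-binding S100 protein of epithelial nuclei, had 81.5, 77.3 and 86.4 RPM in the control and 102.3, 92.1 and 89.9 in the knockdown. It rose by 0.21 on the log2 scale (SE 0.0784, limma adjusted p = 0.0316), with knockdown replicate 4 the highest. Without control replicate 4 or 5 the call was lost (0.21 and 0.17, adjusted p = 0.0834 and 0.135), as it was without knockdown replicate 4 or 5 (0.16 and 0.23, adjusted p = 0.175 and 0.0626).

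S100A16, a widely expressed S100 protein, fell the most of the abundant S100 genes (chromosome 1, 153579362 to 153585622, minus strand). Its control samples had 63.6, 67.2 and 61.1 RPM and its knockdown samples 42.6, 41.1 and 45.9. The gap between the groups was wider than the range within either, at -0.57 on the log2 scale (SE 0.0805, limma adjusted p = 4.27e-06). S100A13, which takes part in the export of FGF1 from cells (chromosome 1, 153591263 to 153606569, minus strand), rose from 25.3, 21.8 and 21.8 RPM to 32.1, 27.2 and 29.3. That is 0.36 on the log2 scale (SE 0.0948, limma adjusted p = 0.00317).

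S100A1, known as a regulator of calcium cycling in muscle, lies inside the span of S100A13 on the opposite strand. Its values were 0.702, 0.617 and 1.19 RPM in the control and 1.19, 1.58 and 1.77 in the knockdown, only 13 to 46 reads, and control replicate 6 reached knockdown replicate 4. Its rise of 0.89 on the log2 scale (SE 0.313, limma adjusted p = 0.0239) was lost without control replicate 4 or 5 (0.80 and 0.71, adjusted p = 0.0582 and 0.0925) or knockdown replicate 5 or 6 (0.85 and 0.77, adjusted p = 0.0832 and 0.0995). The libraries are strand-specific, but whether the counting used strand is not given in the sources used here, so reads of S100A1 and S100A13 may not have been told apart.

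S100A5, an S100 protein known from olfactory neurons, was as low, with 1.12, 0.948 and 0.977 RPM in the control and 0.712, 0.442 and 0.497 in the knockdown, 9 to 32 reads. The group means were 1.02 and 0.550 RPM, so S100A5 reached the 0.688 RPM needed for testing only through the control samples. The knockdown values lay below the control values (log2 fold change -0.91, SE 0.360, limma adjusted p = 0.0445). This call was lost without any 1 of control replicates 4, 5 and 6 (-0.84, -0.96 and -0.94, adjusted p = 0.139, 0.0755 and 0.0706) and without knockdown replicate 5 or 6 (-0.77 and -0.85, adjusted p = 0.130 and 0.0973). S100A14, an epithelial S100 protein, had 0.805, 0.664 and 0.0425 RPM in the control and 0.475, 0.688 and 0.344 in the knockdown. Control replicate 6 there held 1 read, below the floor of 3 reads, 0.127 RPM in that sample. S100P, known from placenta and pancreatic cancer, had 0.297 to 0.474 and 0.237 to 0.344 RPM, on 5 to 10 reads, at which no difference was detectable.

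**Figure D4:**
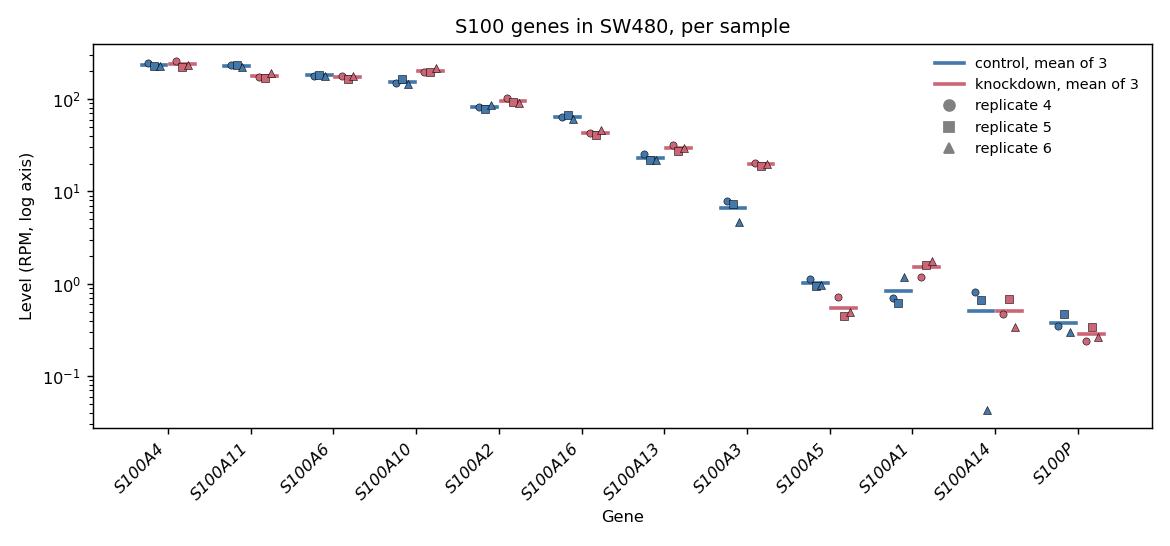
Level of the 12 S100 genes in RPM (y axis, log scale) in each of the 6 samples, ordered by the control mean. Symbols are replicates and short lines are means of 3 samples. S100A3 goes from 6.60 to 19.6, S100A16 from 63.95 to 43.2, S100A4 overlaps at about 235 RPM, and S100A14 and S100P lie below 1 RPM.

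Over the family, S100 reads summed to 976 ± 21.7 RPM in control and 981 ± 39.4 RPM in knockdown samples (SD, n = 3), so the sums overlapped although 8 of its members changed.

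The chromosome 1 cluster was examined gene by gene, because 11 of the 12 S100 genes lie in it. Between the first base of S100A10 and the last of S100A13 the table spans 1651 kb (151955391 to 153606569). S100A10 rose and S100A11, 38.1 kb away, fell. After a long gap of 1487 kb, S100A6 did not pass, S100A5 fell, S100A4 did not pass, S100A3 and S100A2 rose, S100A16 fell, and S100A13 and S100A1 rose. The gap from S100A2 to S100A16 was 39.0 kb, and that from S100A6 to S100A5 was 0.901 kb.

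Skin barrier genes lie between these S100 genes. Of the 12 other genes listed there, not all of them barrier genes, 5 were tested. Of these 2 rose, beside 22.6% of all tested genes, and 1 fell, beside 19.2%. Filaggrin, FLG, a fused S100 protein of cornified skin, rose from 7.37 ± 1.23 to 10.5 ± 0.260 RPM (log2 fold change 0.53, limma adjusted p = 0.00195), and its antisense gene FLG-AS1 by 1.34 (limma adjusted p = 1.1e-05), and reads of these overlapping genes may not be separate. Trichohyalin, TCHH, another fused S100 protein, changed by -0.29 (limma adjusted p = 0.0351), and hornerin, HRNR, had 4.97 ± 1.20 and 6.09 ± 0.976 RPM (limma adjusted p = 0.145).

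**Figure D5:**
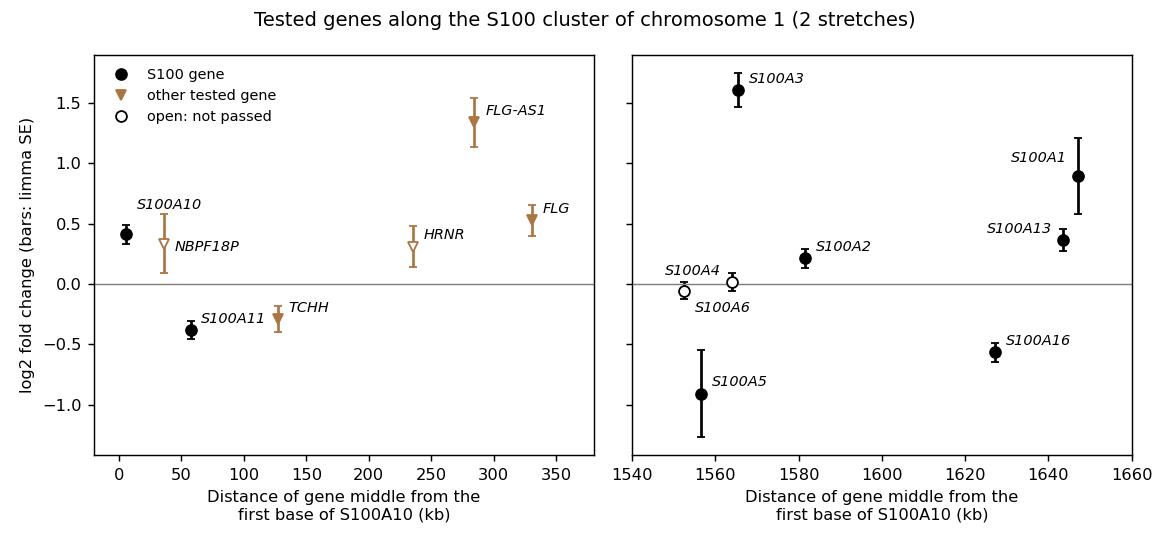
Log2 fold change (y axis, bars limma SE) of the tested genes of the cluster against the distance of the gene's middle from the first base of S100A10 (x axis, kb), in 2 stretches. Circles are S100 genes, triangles other genes, and open symbols did not pass. S100A10 (0.41) and S100A11 (-0.38) sit on either side of 0, as do S100A3 (1.61) and S100A5 (-0.91).

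For each S100 gene of the cluster 20 tested genes were taken, evenly from both sides, with other S100 genes among them. Members were thus in part set against each other. The medians of their log2 fold changes lay between 0.037 (around S100A10) and 0.32 (around S100A6). S100A11, S100A16 and S100A5 lay below their neighbours' medians by 0.57, 0.72 and 1.17 on the log2 scale. S100A1 and S100A3 lay above by 0.80 and 1.41. The other tested S100 genes of the cluster differed from theirs by -0.38 (S100A6) to 0.37 (S100A10). S100A1 and S100A5 rest on few reads, 13 to 46 and 9 to 32, and S100A5 was tested only through its control samples. Around the annexins on other chromosomes the medians ran from -0.18 (ANXA3) to 0.25 (ANXA8), apart from the 0.45 around ANXA4. These differences are a description, with no test.

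Promoter sequences are shown for 2 of the adjacent pairs in which 1 gene rose and its neighbour did not, S100A3 beside S100A4 and S100A10 beside S100A11. They are the 250 bases before the RefSeq start on GRCh38.p14, read 5′ to 3′ on the gene's strand, which is the minus strand for all 4. They lie at chr1:153549259-153549508, chr1:153545807-153546056, chr1:151993860-151994109 and chr1:152037005-152037254 in that order. Capitals mark matches to 5 motifs, searched on the printed strand and its complement. The motif for the TATA box was TATAAA, the motif for the GC box was GGGCGG, the motif for the CCAAT box was CCAAT, the motif for the AP-1 site was TGANTCA, and the motif for an E-box of the kind bound by Snail factors was CAGGTG. None of these motifs contains another.
S100A3: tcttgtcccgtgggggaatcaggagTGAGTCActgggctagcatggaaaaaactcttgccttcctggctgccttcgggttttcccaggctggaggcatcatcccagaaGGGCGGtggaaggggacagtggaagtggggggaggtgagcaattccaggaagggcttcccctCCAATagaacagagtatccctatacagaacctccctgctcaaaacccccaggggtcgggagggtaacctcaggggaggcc
S100A4: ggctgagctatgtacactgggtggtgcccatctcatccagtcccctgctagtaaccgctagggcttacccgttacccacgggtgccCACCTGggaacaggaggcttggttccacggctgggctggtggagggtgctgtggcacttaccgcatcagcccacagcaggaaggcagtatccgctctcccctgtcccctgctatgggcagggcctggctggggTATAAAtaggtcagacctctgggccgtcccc
S100A10: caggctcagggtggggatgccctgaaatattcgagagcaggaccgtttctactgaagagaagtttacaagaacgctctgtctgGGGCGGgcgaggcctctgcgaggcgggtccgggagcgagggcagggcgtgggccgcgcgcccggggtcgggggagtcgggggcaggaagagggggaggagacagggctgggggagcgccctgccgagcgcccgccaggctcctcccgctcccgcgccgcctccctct
S100A11: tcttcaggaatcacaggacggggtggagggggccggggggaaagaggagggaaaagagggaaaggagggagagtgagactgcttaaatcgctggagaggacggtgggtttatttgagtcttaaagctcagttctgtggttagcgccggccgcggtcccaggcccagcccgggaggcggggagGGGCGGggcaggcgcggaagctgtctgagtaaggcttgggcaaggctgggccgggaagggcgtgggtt

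The S100A3 window holds an AP-1 motif that begins 225 bases before the start, a GC box at 142 and a CCAAT box at 80, and no TATA box. The S100A4 window holds a TATA box at 31 and an E-box at 164. The windows of S100A10 and S100A11, which changed in opposite directions, each hold a GC box alone, at 167 and 68. Of 35116 promoter windows of this length in the RefSeq table, 10.7% hold the TATA motif, 42.6% the GC box, 32.0% the CCAAT box, 6.57% the AP-1 motif and 17.5% the E-box.

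Promoter entries were matched for 21 of the 22 members, with 30 starts. For 20 of these starts, covering 17 members, bases soon after the start were found in a GENCODE 29 transcript of the gene. A member can have several starts, so the counts by member are not comparable with the shares of windows above. The AP-1 motif is in at least 1 window of 4 members, of which S100A2 and S100A3 rose, S100A5 fell and ANXA2 did not pass. The S100A5 start with this motif was not among those found in a transcript. The E-box is in windows of 11 members, of which 2 rose, 4 fell, 3 did not pass and 2 were not tested. Its windows for ANXA4, ANXA6, ANXA7, S100A5 and S100A14 are also at starts not found in a transcript. The GC box is in windows of 12 members, of which 4 rose and 4 fell. Its windows for ANXA4, ANXA7 and S100A13 are likewise at starts not found in a transcript. Of all tested genes 22.6% rose and 19.2% fell. The TATA box is in windows of 1 member that rose and 1 that fell, and the CCAAT box in windows of 2 and 3. The TATA box and CCAAT windows of ANXA11 and the CCAAT window of ANXA7 are at starts not found in a transcript. For the AP-1 motif the only fall is that of S100A5, which reached the level needed for testing only through its control samples. These counts therefore do not show whether any motif went with 1 direction. A match is a run of letters and not evidence of binding.

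Partners of these proteins were taken from lists drawn up by function. Their counts are to be read against the 22.6% of all tested genes that rose and the 19.2% that fell. Of the receptors that S100 proteins are reported to use, 4 of 5 were tested. RAGE, encoded by AGER, had 2.46, 2.50 and 2.91 RPM in the control and 3.87, 2.60 and 4.24 in the knockdown (limma adjusted p = 0.0906), and TLR4 had 6.07 ± 0.660 and 5.52 ± 0.540 RPM (limma adjusted p = 0.463). Basigin, BSG, an immunoglobulin-family receptor for S100A9, fell by 0.21 on the log2 scale, and the adhesion molecule ALCAM rose from 2.99 ± 0.137 to 6.33 ± 0.0911 RPM (log2 fold change 1.08, limma adjusted p = 3.04e-06). The formyl peptide receptors of annexin A1 were not analysed here.

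In the plasminogen system, which the annexin A2 complex serves, 2 of 8 tested genes rose, near the 22.6% of all genes, and 3 fell, beside 19.2%. The activators PLAT and PLAU rose. PLAU, urokinase, had 10.2, 9.53 and 8.49 RPM in the control and 13.4, 14.4 and 15.7 in the knockdown (log2 fold change 0.63, SE 0.113, limma adjusted p = 9.29e-05). PLAT, the tissue activator that binds annexin A2, had 8.61, 7.64 and 4.80 against 10.8, 10.6 and 14.3 RPM (0.79, limma adjusted p = 0.000379). The protease inhibitor SERPINE2 fell from 14.6 ± 0.671 to 6.50 ± 0.859 RPM (-1.17, limma adjusted p = 3.19e-08). Cathepsin B, CTSB, and enolase, ENO1, a plasminogen-binding enzyme, changed by -0.52 and -0.38. The urokinase receptor PLAUR had 17.98 ± 1.06 and 21.1 ± 1.99 RPM and did not pass (limma adjusted p = 0.0652).

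Among membrane repair partners 4 of 11 tested genes rose and 0 fell, a called share of 36.4% beside 41.8% of all genes, and the median change of all 11 was -0.09 on the log2 scale, opposite in sign to those 4. SYT7, the lysosomal calcium sensor of exocytosis, rose from 22.3 ± 3.99 to 36.7 ± 3.57 RPM (0.73, limma adjusted p = 9.97e-06), the calpain CAPN1 by 0.27, PDCD6IP (ALIX) by 0.23 and dysferlin, DYSF, by 0.65 at 1.79 ± 0.639 RPM in the control. AHNAK, the giant scaffold held by the annexin A2 complex, had 1067 ± 49.7 and 945.0 ± 60.4 RPM (limma adjusted p = 0.0800).

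Of 12 tested cytoskeletal partners, 7 fell, beside 19.2% of all genes, and 2 rose, beside 22.6%, and the median change was -0.25 on the log2 scale, where all tested genes had 0.00072. Ezrin (EZR), moesin (MSN) and radixin (RDX), which tie actin to the membrane, changed by -0.37, -0.35 and -0.28, and the myosin light chain MYL6 by -0.37 (limma adjusted p = 0.000364). MYH9, the myosin heavy chain bound by S100A4, also fell, from 701 ± 56.6 to 591 ± 48.7 RPM (limma adjusted p = 0.0179), while the capping protein CAPZA2 rose by 0.41.

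Of the other calcium sensors with EF hands 5 of 18 tested rose and 2 fell, a called share of 38.9% that is near the 41.8% of all genes. HPCAL1, a neuronal calcium sensor family member, rose by 0.58 (limma adjusted p = 7.35e-06). The calmodulin gene CALM2 rose by 0.40 (limma adjusted p = 0.000267). CALML4 and CABP1 rose by 0.54 and 1.75, and PEF1 changed by -0.33. CABP1 went from 0.324 ± 0.0653 to 1.12 ± 0.387 RPM, and reached the 0.688 RPM needed for testing only through the knockdown samples. Of the copines, another family of calcium-dependent membrane binders, 1 of 5 tested changed, CPNE1 by -0.23 (limma adjusted p = 0.0159).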

How the data were processed

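The authors' deposited table gives 1 value per gene and sample, which from its values is the log2 of RPM plus an offset of 1e-04. The submitters' processing notes name Partek and Bowtie, without versions, and hg38; the sources used here do not state the gene models, counting rule or filters, and the table's positions, printed as they stand, reach 249214146 on chromosome 1, past its end in hg38. RPM was recovered by undoing the log. The depth was read from the smallest value shared by at least 300 symbols, taken as 1 read; 78.3% to 79.9% of values under about 10 reads were whole to within 0.02, so no count model was run. Symbols at several loci (1192) had identical values and were used once.

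Genes whose mean reached 0.688 RPM (14 reads in the shallowest sample) were tested with limma 3.58.1 in R 4.3.3 (lmFit, eBayes with trend, 3 against 3 samples, two-sided, Benjamini-Hochberg over all genes). Figures used matplotlib 3.10.9. Members, gene lists, motifs and ratios were chosen with earlier results of these data known. The text names every member, the copies ANXA2P2, ANXA8L1 and ANXA8L2, chosen after their values were seen, and up to 6 genes a list by smallest adjusted p, with further list genes chosen for their role. One gene that this rule would name is not reported here. The fit was tested on simulated data. Alternatives were the filter, the offset, the scaling, the variance prior, a replicate block and each sample left out.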

Additional observations from a re-analysis of the deposited data

How the results depend on the processing

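Of the 13 members that changed, 9 kept direction and side of the threshold under all of the up to 16 alternatives run for each (ANXA1, ANXA3, ANXA5, ANXA7, S100A3, S100A10, S100A11, S100A13 and S100A16). ANXA4, S100A1, S100A2 and S100A5 lost their call under 5 to 8 of them but kept direction. With 1 sample left out at a time, 3 to 5 members rose and 6 to 8 fell, the lowest count of rises, 3, being that without control replicate 4. ANXA2 passed under 5 alternatives, ANXA6 under 2 and ANXA8 under 1. The limma fit takes part of each gene's variance from other genes, with the trend from those of similar level. Without the trend S100A3 had limma adjusted p = 0.00224 and ANXA3 0.0110, against 2.28e-09 and 4.66e-05 with it. Only S100A5 (0.0114) and ANXA9 (0.167) had a lower limma adjusted p without the trend than with it.

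Only members that did not pass changed sign. ANXA11 had 0.016 with the total of genes other than mitochondrial ones, 0.017 with quantile normalization, and 0.017 and 0.063 without control or knockdown replicate 5, so the range with 1 sample left out was -0.12 to 0.063. S100A4 ranged from -0.040 to 0.053 with 1 sample left out, at -0.00065 and -0.0073 without control replicates 5 and 6. S100A6 had 0.025 with quantile normalization. For S100A1 and S100A5 an offset of 1 RPM shrank the log2 fold change to 0.46 and -0.38, since both lie near 1 RPM.

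Replicate numbers did not pair the samples, with correlations of same-numbered deviations across genes of -0.05, -0.08 and -0.14. With the replicate block 4 members rose and 6 fell, and ANXA2 had adjusted p = 0.199 by limma. Depth limits S100A14, S100P, S100A1 and S100A5, which rest on 1 to 46 reads a sample.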
